A study of Mus musculus with 9 samples.

Results

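The genes described here are 36 genes that build ribosomes or work in the nucleolus, together with Myc, the transcription factor known for driving many of them. They were taken by symbol from a list of names, each matched 1 row, and together they are 37 of the 23944 genes in the deposited tables. All 37 passed the filter on low counts, and the lowest count of a member in any library was 86 reads. The study measured RNA of whole left lungs of wild-type adult mice by RNA sequencing, with 3 libraries in each of 3 groups. Naive lungs came from C57BL/6 mice with no transplantation. Cold ischemia grafts were C57BL/6 donor lungs kept at 0 °C for 24 hours, then transplanted into Balb/C recipients and reperfused for 2 hours. Shock grafts came from C57BL/6 donors that first went through hypovolemic shock for 4 hours at a mean arterial pressure of 15 ± 5 mmHg and recovered for 20 hours, and then through the same storage, transplantation and reperfusion. All 6 grafts therefore shared surgery, cold storage, reperfusion and a recipient of another strain, and no group here parts these from each other.

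Ribosome production begins in the nucleolus, where RNA polymerase I transcribes the precursor of the large ribosomal RNAs. Small nucleolar ribonucleoprotein particles (snoRNPs) modify this precursor, and processing factors cut, fold and assemble it with ribosomal proteins into the small and the large subunit. Myc is an immediate early gene in many cell types and is known to raise the transcription of these genes, pairing with Max at the E-box sequence in their promoters.

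Some libraries limit what follows. Cold ischemia replicate 2 and shock replicate 3 carry these groups in their sample titles, whereas the columns of the deposited tables place each of these 2 libraries in the opposite graft group. Results here follow the titles, and comparisons between the 2 graft groups are also given by the tables' grouping and without both libraries. Each of the 3 naive libraries is labelled as a sample of a different series, which holds for 0 of the 6 grafts, so a batch difference and transplantation cannot be told apart. The titles do not name animals, and p-values measure only the spread between these libraries. Total counts ran from 18913487 to 34986276 per library. Levels are given in CPM, counts scaled to library size, with library sizes adjusted by TMM, a method that centres on the bulk of genes. Tests are edgeR's quasi-likelihood test over 15834 genes with Benjamini-Hochberg adjustment, and a gene was called at an adjusted p under 0.05. The 8 lung marker genes checked were present in every library, with a summed level of 35806 to 45104 CPM in naive lungs and 28848 to 44827 CPM in grafts.

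Across all 6 grafts against naive lungs, 17 of the 37 genes were called higher, beside 22.1% of all genes tested. Of the 37, 1 was called lower, beside 19.7% of all genes, and 19 were not called. Their median log2 fold change was 0.58, beside -0.05 over all genes tested. The range was wide, from -0.54 for Dkc1 to 4.84 for Myc. Levels in the 6 grafts lay entirely above the 3 naive lungs for 16 genes (20.9% of all genes) and entirely below them for 1 gene (20.0% of all genes). Against naive lungs the cold ischemia grafts alone gave 13 genes higher (17.5% of all genes) and 1 lower (13.1%), with a median log2 fold change of 0.41. The shock grafts alone gave 19 higher (22.0%) and 1 lower (17.9%), with a median of 0.76. Without shock replicate 2, this median was 0.37 and 15 genes were higher. These comparisons share the same 3 naive libraries. The plot of log2 fold changes by role shows each gene in both graft groups.

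**Figure D1:**
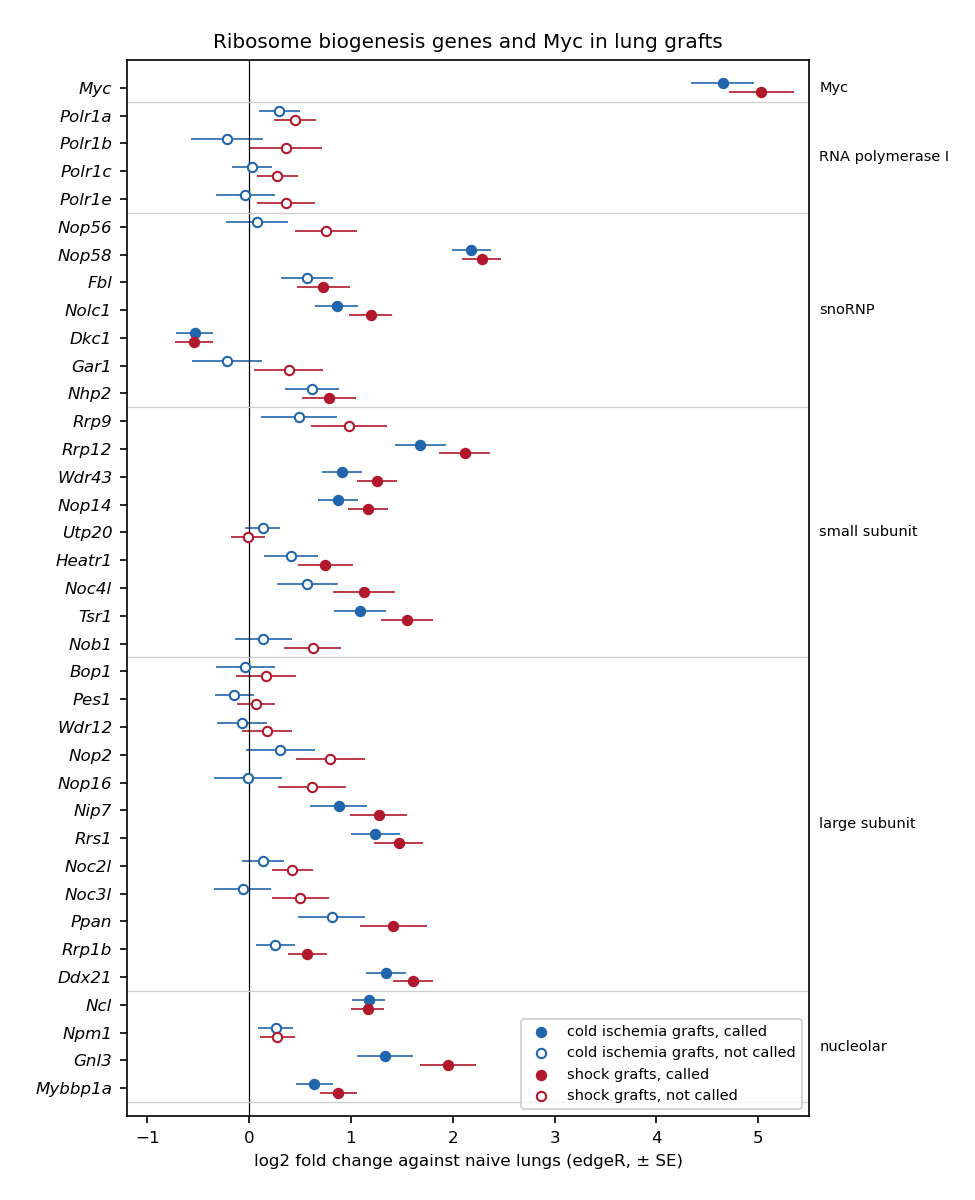
Log2 fold change against naive lungs (horizontal axis, edgeR estimate ± standard error) of the 37 genes, ordered by role, in cold ischemia grafts (blue) and shock grafts (red). Filled points passed the adjusted p threshold of 0.05 and open points did not. Myc stands far to the right at 4.65 and 5.03, Nop58 leads the rest at 2.18 and 2.29, Dkc1 lies below 0 in both groups, and the 4 RNA polymerase I genes have open points only.

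Myc (chr15:61985341-61990374, mm10) moved most. It stood at 6.01, 6.24 and 7.84 CPM in naive replicates 1 to 3, at 202, 183 and 121 CPM in cold ischemia replicates 1 to 3, and at 257, 266 and 136 CPM in shock replicates 1 to 3. The lowest graft was far above the highest naive lung, while the 2 graft groups overlapped. Group means were 6.70 ± 0.996 CPM (SD, n = 3) in naive lungs, 169 ± 42.3 CPM in cold ischemia grafts and 219.5 ± 72.7 CPM in shock grafts. The log2 fold change of all grafts against naive lungs was 4.84 ± 0.30 (SE), a 28.7-fold difference, with an edgeR adjusted p of 1.5e-06. On the length-corrected FPKM scale Myc ranked 31st of the 37 genes in naive lungs, at 3.24 ± 0.404 FPKM (SD, n = 3), and 2nd in the grafts, at 74.96 ± 21.7 FPKM (SD, n = 6). In the grafts, Npm1 at 100.2 ± 14.6 FPKM was the one gene above it.

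Of 12 partners, relatives and antagonists of Myc, 2 were called higher (16.7%, beside 22.1% of all genes), 4 lower (beside 19.7%) and 6 were not called. Mxd1, which competes with Myc for Max, stood at 40.1, 35.2 and 50.7 CPM in naive lungs, at 241, 341 and 332 CPM in cold ischemia grafts and at 645, 390 and 298 CPM in shock grafts. All grafts exceeded all naive lungs, and the log2 fold change was 3.13 ± 0.28 (edgeR adjusted p = 1.3e-05). Mlxip, which pairs with Mlx, was also called higher, at 0.75 ± 0.12 on the log2 scale. Mycl, a paralog of Myc, fell by 1.85 ± 0.17 on the log2 scale, from between 14.6 and 17.96 CPM in naive lungs to between 3.39 and 5.96 CPM in grafts. The Max-binding antagonists Mxd4 and Mnt were called lower at -0.998 ± 0.15 and -0.75 ± 0.16, as was Mxi1 at -0.41 ± 0.15 (adjusted p = 0.0496). Max itself, the obligate partner, had a log2 fold change of 0.29 ± 0.14 and was not called (adjusted p = 0.11).

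Genes often described as Myc targets outside ribosome building moved in both directions. Of 14, 6 were called higher (42.9%, beside 22.1% of all genes) and 2 lower (beside 19.7%). Odc1, the rate-limiting enzyme of polyamine synthesis, went from 77.7, 79.0 and 76.9 CPM in naive lungs to between 478 and 875 CPM in the grafts, a log2 fold change of 3.24 ± 0.20 (edgeR adjusted p = 1.4e-06). Eif4a1 and Eif4e, subunits of the cap-binding complex of translation, were higher by 1.56 ± 0.16 and 1.11 ± 0.14 on the log2 scale. Cdk4, a cell cycle kinase, fell by 0.62 ± 0.14, and Cad, an enzyme of pyrimidine synthesis, fell by 0.57 ± 0.18.

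With the titles' grouping, none of the 4 RNA polymerase I subunits was called in grafts, beside 41.8% of all genes called in either direction. Their log2 fold changes ran from 0.08 to 0.38. Polr1a, the largest subunit, stood at 23.0, 22.3 and 24.8 CPM in naive lungs, at 24.9, 35.95 and 25.4 CPM in cold ischemia grafts and at 36.4, 36.1 and 23.4 CPM in shock grafts. Cold ischemia replicate 2 and shock replicates 1 and 2 were thus near 36 CPM, and the other 3 grafts lay close to the naive lungs. Over all grafts its log2 fold change was 0.38 ± 0.18 (adjusted p = 0.12). It was called higher with the tables' grouping, without both disputed libraries and without shock replicate 3. The authors' deposited table lists it at 0.67 in shock grafts against naive lungs, with an adjusted p of 7.1e-05. Polr1b, the second-largest subunit, was at 10.04, 11.3 and 11.2 CPM in naive lungs, at 10.3, 12.3 and 5.45 CPM in cold ischemia grafts and at 10.8, 22.0 and 9.22 CPM in shock grafts. Shock replicate 2 was high, cold ischemia replicate 3 was low, and the groups overlapped. Polr1c, shared with RNA polymerase III, ranged from 19.5 to 23.3 CPM in naive lungs and from 19.6 to 34.4 CPM in grafts, and Polr1e ranged from 4.18 to 5.24 CPM and from 3.53 to 8.52 CPM. For both, the groups overlapped.

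Of 11 further subunits and factors of RNA polymerase I, 3 were called higher (27.3%) and 2 lower (18.2%), beside 22.1% and 19.7% of all genes. Taf1d, a subunit of the promoter selectivity factor, was higher by 1.28 ± 0.19 on the log2 scale, Twistnb, a subunit of the polymerase, by 0.94 ± 0.13, and Rrn3, the factor that brings the polymerase to the promoter, by 0.76 ± 0.12. Ubtf, the upstream binding factor that keeps ribosomal DNA open, fell by 0.70 ± 0.10, and the termination factor Ttf1 fell by 0.68 ± 0.14.

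Among the 7 snoRNP genes, 4 were called higher (57.1%, beside 22.1% of all genes), 1 lower (beside 19.7%) and 2 were not called. Nop58 (chr1:59684971-59719044, mm10), a core protein of the box C/D particles that guide methylation of ribosomal RNA, had the largest change after Myc. Its levels were 19.9, 22.9 and 22.4 CPM in naive lungs, 121, 97.0 and 78.1 CPM in cold ischemia grafts and 100.02, 128 and 89.8 CPM in shock grafts. Every graft was above every naive lung, with a log2 fold change of 2.23 ± 0.18 (edgeR adjusted p = 7.6e-06). Its paralog and partner Nop56 stood at 24.4, 27.4 and 26.8 CPM in naive lungs, at 35.5, 24.0 and 23.6 CPM in cold ischemia grafts and at 29.7, 71.05 and 32.3 CPM in shock grafts. Shock replicate 2 was far above the rest for Nop56, the groups overlapped, and the log2 fold change of 0.42 ± 0.27 was not called (adjusted p = 0.24). Fbl, fibrillarin, the methyltransferase of the same particle, was at most 24.6 CPM in naive lungs, lay between 27.2 and 52.8 CPM in grafts and was called at 0.65 ± 0.23 (adjusted p = 0.043). This call was lost in 7 of the 15 alternative settings, among them upper-quartile scaling, the replicate block and each naive library left out.

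The proportion of these partners within a library does not depend on how libraries are scaled. The FPKM ratio of Nop58 to Nop56 was 0.311, 0.319 and 0.318 in naive lungs. In cold ischemia grafts it was 1.30, 1.54 and 1.26, and in shock grafts 1.28, 0.689 and 1.06. Every graft was thus above every naive lung in this ratio. Its size within a library depends on the deposited gene lengths, 9507 bases for Nop58 and 3627 for Nop56. Only its change between groups is therefore read here, and not which of the 2 genes had more mRNA. The ratio of Nop58 to Fbl likewise went from between 0.114 and 0.128 to between 0.296 and 0.448, with no overlap. These ratios were chosen after the levels were seen and are given without a test.

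The box H/ACA particle, which guides pseudouridylation of ribosomal RNA, behaved differently. Dkc1 (chrX:75095854-75109777, mm10), its pseudouridine synthase and the single gene called lower, stood at 19.9, 20.9 and 20.6 CPM in naive lungs. It was at 16.1, 13.6 and 12.8 CPM in cold ischemia grafts and at 13.6, 17.6 and 11.1 CPM in shock grafts. All 6 grafts were below all 3 naive lungs, and Dkc1 fell by 0.54 ± 0.16 on the log2 scale (edgeR adjusted p = 0.018). That call was lost when naive replicate 2 or naive replicate 3 was left out, with 0 genes then lower. Nhp2, an RNA-binding subunit of the same particle, moved the opposite way, from 16.4, 16.96 and 14.6 CPM to 27.2, 19.8 and 26.6 CPM in cold ischemia grafts and 18.8, 41.0 and 23.0 CPM in shock grafts. Its groups did not overlap, with a log2 fold change of 0.70 ± 0.23 (adjusted p = 0.033), a call lost in the same 7 settings as that of Fbl. Gar1, a further subunit, was between 10.4 and 10.99 CPM in naive lungs and between 7.87 and 23.3 CPM in grafts, with the high value in shock replicate 2, and was not called (0.08 ± 0.30). The fourth core subunit Nop10, which is not among the 37, fell by 0.53 ± 0.17. The FPKM ratio of Dkc1 to Nhp2 was between 0.451 and 0.526 in naive lungs and between 0.159 and 0.269 in grafts. That of Dkc1 to Nop10 overlapped, from 0.347 to 0.401 in naive lungs and from 0.264 to 0.490 in grafts.

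Nolc1, a nucleolar chaperone of both kinds of snoRNP, rose from 27.9, 33.6 and 38.8 CPM in naive lungs to 72.3, 59.2 and 50.7 CPM in cold ischemia grafts and 68.4, 99.4 and 61.7 CPM in shock grafts. Its lowest graft was above its highest naive lung, and the log2 fold change was 1.03 ± 0.19 (edgeR adjusted p = 0.0016). Of 18 further snoRNP and exosome genes in the tables, 5 were called higher (27.8%, beside 22.1% of all genes) and 5 lower (beside 19.7%). Nufip1, a snoRNP assembly factor, was higher by 0.85 ± 0.15, Nhp2l1, which belongs to the C/D particle, by 0.65 ± 0.13, and Naf1, an assembly factor of H/ACA particles, by 0.46 ± 0.14. The exosome subunits Exosc7 and Exosc5 fell by 0.81 ± 0.21 and 0.71 ± 0.16 on the log2 scale.

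**Figure D2:**
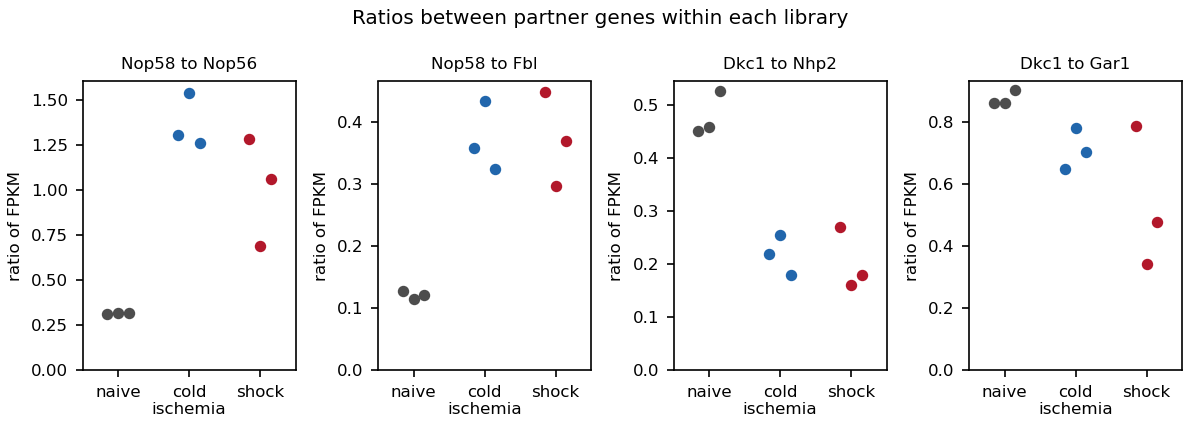
Ratio of FPKM between 2 genes of 1 particle within each library (vertical axis, from 0), for naive lungs, cold ischemia grafts and shock grafts, with 1 point per library and replicates 1 to 3 from left to right. Both Nop58 ratios are higher in all grafts than in all naive lungs, and the 2 Dkc1 ratios drawn are lower, with Dkc1 to Gar1 between 0.862 and 0.902 in naive lungs and between 0.342 and 0.786 in grafts.

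Of the 9 small subunit factors, 5 were called higher (55.6%, beside 22.1% of all genes) and none lower (beside 19.7%). Rrp12, an export and maturation factor of pre-ribosomes, rose from 5.69, 8.01 and 9.13 CPM in naive lungs to 29.0, 25.6 and 18.7 CPM in cold ischemia grafts and 31.6, 41.5 and 25.9 CPM in shock grafts. The groups did not overlap, and its log2 fold change of 1.90 ± 0.23 (edgeR adjusted p = 1.0e-04) was the largest of this role. Tsr1, a late assembly factor of the small subunit, rose from 11.9, 11.6 and 13.1 CPM to 31.9, 26.5 and 19.3 CPM in cold ischemia grafts and 29.2, 50.5 and 27.6 CPM in shock grafts, by 1.32 ± 0.23 (adjusted p = 0.0011). Wdr43, a component of the first processing complex on the nascent ribosomal RNA, was at 27.8, 26.3 and 25.7 CPM in naive lungs, at 59.5, 53.1 and 38.0 CPM in cold ischemia grafts and at 56.2, 80.0 and 54.6 CPM in shock grafts. All its grafts were higher than all naive lungs, by 1.09 ± 0.18 on the log2 scale (adjusted p = 7.6e-04). Nop14 rose from 20.9, 19.8 and 17.02 CPM to 42.3, 34.0 and 29.1 CPM and to 38.2, 54.4 and 37.1 CPM in the same order of groups, by 1.02 ± 0.18 (adjusted p = 0.0010), again with no overlap.

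Noc4l, a binding partner of Nop14, was called at 0.85 ± 0.27 (adjusted p = 0.026), although its lowest graft, at 10.4 CPM in cold ischemia replicate 3, lay within the naive range of 8.87 to 11.2 CPM. The call of Noc4l was lost in 5 of 15 alternative settings, upper-quartile scaling among them. The remaining 4 small subunit genes were not called over all grafts. Rrp9, a U3 snoRNP protein, had a log2 fold change of 0.74 ± 0.33 and Heatr1 one of 0.58 ± 0.24, and Heatr1 passed in the comparison of shock grafts with naive lungs (0.75 ± 0.27, adjusted p = 0.046). That call was lost in 7 of 16 settings, and over all grafts Heatr1 was called in 4 of 15, DESeq2 and the tables' grouping among them. Nob1, the endonuclease of the last cut of the small subunit RNA, was at 0.38 ± 0.25. Utp20, at 0.06 ± 0.15, lay between 23.2 and 24.3 CPM in naive lungs and between 19.9 and 30.2 CPM in grafts. Of 41 further small subunit factors, 16 were called higher (39.0%, beside 22.1% of all genes) and 1 lower (beside 19.7%). Nol10 led at 2.31 ± 0.26 on the log2 scale, followed by Cirh1a at 1.61 ± 0.17 and Ltv1 at 1.11 ± 0.15. Imp3, a U3 snoRNP protein, fell by 0.96 ± 0.25.

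Of the 12 large subunit factors, 4 were called higher (33.3%, beside 22.1% of all genes) and none lower (beside 19.7%). Ddx21, a nucleolar RNA helicase, rose from 68.8, 78.1 and 92.6 CPM in naive lungs to 235, 211 and 162 CPM in cold ischemia grafts and 227, 300.4 and 205 CPM in shock grafts. No graft overlapped a naive lung, and the log2 fold change was 1.48 ± 0.18 (edgeR adjusted p = 1.1e-04). Rrs1, which brings the 5S ribonucleoprotein into the large subunit, rose from 18.9, 18.2 and 22.1 CPM to 50.9, 50.3 and 38.9 CPM and to 40.3, 78.3 and 45.6 CPM, by 1.35 ± 0.22 (adjusted p = 6.5e-04). Ppan rose from 7.32, 7.69 and 10.1 CPM to 17.005, 14.8 and 12.4 CPM and to 13.2, 36.3 and 17.8 CPM, by 1.12 ± 0.30 (adjusted p = 0.012), a call lost in 2 of 15 alternative settings. Nip7, a pre-ribosomal RNA processing factor, rose from 11.8, 8.87 and 13.2 CPM to 27.3, 17.3 and 17.9 CPM and to 19.5, 38.1 and 24.4 CPM, by 1.08 ± 0.25 (adjusted p = 0.0055). For these 3 genes too every graft lay above every naive lung, and shock replicate 2 was the highest library.

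The PeBoW complex, made of Pes1, Bop1 and Wdr12 and needed for maturation of the large subunit RNA, was near 0 on the log2 scale. Pes1 was at 39.1, 43.5 and 40.1 CPM in naive lungs, at 38.8, 32.9 and 39.5 CPM in cold ischemia grafts and at 35.8, 57.0 and 35.8 CPM in shock grafts, a log2 fold change of -0.04 ± 0.16. Bop1 had 0.07 ± 0.25 and Wdr12 0.06 ± 0.21, and none of the 3 was called. Nop2, a methyltransferase of large subunit RNA, had 0.55 ± 0.30, Nop16 had 0.30 ± 0.29, Noc2l had 0.28 ± 0.18 and its partner Noc3l had 0.22 ± 0.25. Rrp1b, at 0.42 ± 0.17, passed in shock grafts against naive lungs (0.57 ± 0.19, adjusted p = 0.036). That call was lost in 10 of 16 settings, including the tables' grouping and no filter, and over all grafts Rrp1b was called in 3 of 15, DESeq2 among them. Of 38 further large subunit factors, 17 were called higher (44.7%, beside 22.1% of all genes) and 0 lower (beside 19.7%). Gtpbp4 was at 1.87 ± 0.13 on the log2 scale. Eif6, which holds the large subunit apart from the small one, was at 1.74 ± 0.19. Nmd3, the nuclear export adaptor of the large subunit, was at 1.30 ± 0.15.

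Of the 4 nucleolar protein genes, 3 were called higher (75%, beside 22.1% of all genes). Ncl (chr1:86344719-86359400, mm10), nucleolin, rose from 258, 268 and 228 CPM in naive lungs to 658, 537 and 508 CPM in cold ischemia grafts and 519, 647 and 524 CPM in shock grafts, by 1.17 ± 0.15 on the log2 scale (edgeR adjusted p = 1.2e-04). Gnl3, nucleostemin, rose from 13.3, 13.1 and 15.8 CPM to 44.1, 34.7 and 27.6 CPM and to 41.7, 80.7 and 40.9 CPM, by 1.64 ± 0.25 (adjusted p = 4.9e-04). Mybbp1a, a nucleolar Myb-binding protein, rose from 57.1, 59.9 and 60.1 CPM to 101, 98.9 and 77.0 CPM and to 92.2, 141 and 92.3 CPM, by 0.76 ± 0.16 (adjusted p = 0.0037). The groups did not overlap for any of these 3 genes. Npm1, nucleophosmin, the most abundant of the 37 per length, stood at 153, 156 and 130.3 CPM in naive lungs, at 208, 142 and 176 CPM in cold ischemia grafts and at 151, 204 and 178 CPM in shock grafts. Its groups overlapped and its log2 fold change of 0.27 ± 0.15 was not called (adjusted p = 0.18). Npm1 has near-identical pseudogenes, so its counts are uncertain.

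**Figure D3:**
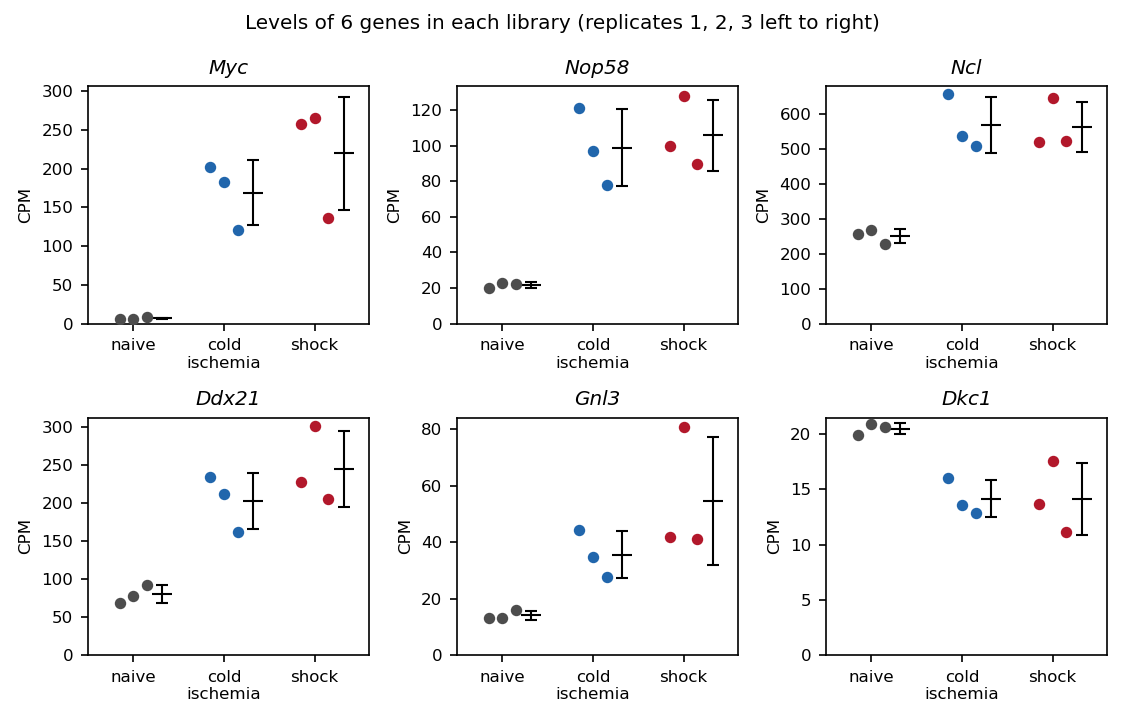
Level in CPM (vertical axis, from 0) of Myc, Nop58, Ncl, Ddx21, Gnl3 and Dkc1 in each of the 9 libraries, with 1 point per library and a dash with bars for the group mean ± SD (n = 3). The 5 genes called higher have all grafts above all naive lungs, and Dkc1 has all grafts below them, while cold ischemia and shock grafts overlap in each panel.

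In 15 alternative settings (other scaling, other filter, a replicate block, the other grouping, libraries left out), 13 genes were called higher over all grafts every time. They were Myc, Nop58, Nolc1, Rrp12, Wdr43, Nop14, Tsr1, Ddx21, Rrs1, Nip7, Ncl, Gnl3 and Mybbp1a. The share of all genes called higher every time was not counted. The scale matters for the smaller changes. Upper-quartile scaling moves the median log2 fold change of all genes to -0.25, and on it 14 genes were called higher over all grafts and those called higher made up 34.8% of all called genes, against 52.8% with TMM. The FPKM scale, which divides by total counts, lies 0.32 lower than TMM for the grafts, with an all-gene median of -0.37. On it 25 of the 37 genes had a higher mean in grafts than in naive lungs, beside 30.5% of all genes, against 35 of 37 and 47.2% with TMM.

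Other ribosome building genes, from lists that leave out the 37, gave 41 called higher over all grafts (38.0%, beside 22.1% of all genes). Of these other genes, 8 were called lower (beside 19.7%) and 59 were not called. The median log2 fold change of all these other genes was 0.38. Their direction was positive in 76.9%, beside 46.8% of all genes tested.

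Of the 37 genes, 8 carry 23 snoRNA genes within them on the same strand in the GENCODE annotation. Of these 8 hosts, 6 were called higher (Nop58, Wdr43, Tsr1, Ppan, Ncl and Gnl3), Dkc1 was called lower and Nop56 was not called, beside 11 higher, 0 lower and 18 not called among the other 29. This split was made after the levels were seen and has no test. Genes on the opposite strand overlap 16 of the 37, and the labels do not state whether the libraries kept the strand, so reads in shared stretches cannot be told apart. Spns2, which overlaps Mybbp1a, had a log2 fold change of -1.05, and Srr, which overlaps Tsr1, had -0.71, both opposite to their partner. Lgals8, which overlaps Heatr1, was called higher at 0.48 and Samd11, which overlaps Noc2l, at 3.79. Both had the same sign as their partners, which were not called over all grafts. Samd11 was barely detected, at a mean of 0.0348 CPM in naive lungs and 0.628 CPM in grafts. Its naive mean lay below the level of 3 reads, which is 0.0759 to 0.15 CPM by library. Noc2l ranged from 22.9 to 33.8 CPM in naive lungs and from 24.5 to 45.9 CPM in grafts. Pbrm1, which overlaps Gnl3, had 0.19 and Mpp1, which overlaps Dkc1, had 0.10, and neither was called.

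Promoter sequences show where the E-box CACGTG, which reads the same on both strands, lies near the start of these genes. RefSeq promoter entries (GRCm38.p6, 250 bases before to 50 after the start) were found for 31 of the 37 genes, and 6 of them (19.4%) held the motif. It was in 3 of 13 genes called higher and in 3 of 18 others, beside 11.0% of the genes tested and 7.15% of all promoters in the table. Myc, Fbl, Npm1, Bop1, Rrp12 and Rrs1 had no entry. The stretches below are those with the motif and the smallest adjusted p, on the plus strand and 5′ to 3′, with the motif in capitals. Wdr43 (chr17:71616095-71616244), Tsr1 (chr11:74897960-74898109) and Nop2 (chr6:125131763-125131912) are shown from 120 bases before the start to 30 after it. Mybbp1a (chr11:72441347-72441376) is shown by 30 bases that begin some way past the start, with the motif 40 bases after the start.
Wdr43: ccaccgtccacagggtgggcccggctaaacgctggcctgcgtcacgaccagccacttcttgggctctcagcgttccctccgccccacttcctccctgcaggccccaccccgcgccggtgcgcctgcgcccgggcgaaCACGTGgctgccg
Tsr1: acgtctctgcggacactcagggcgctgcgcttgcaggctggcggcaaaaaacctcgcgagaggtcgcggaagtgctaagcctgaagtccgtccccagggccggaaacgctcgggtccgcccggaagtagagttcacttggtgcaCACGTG
Mybbp1a: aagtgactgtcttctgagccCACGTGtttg
Nop2: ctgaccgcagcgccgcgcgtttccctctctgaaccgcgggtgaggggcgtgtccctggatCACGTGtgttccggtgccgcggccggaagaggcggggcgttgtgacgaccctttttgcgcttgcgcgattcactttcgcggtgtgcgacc
The motif lies after the start in Wdr43, Tsr1 and Mybbp1a, which were called higher, and also in Utp20 and Pes1, which were not called. In Nop2, not called either, it lies before the start. A match is a description of these letters, and binding was not measured.

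Shock and cold ischemia grafts were not separated at these genes. With the titles' grouping, edgeR called 0 of the 37 genes and 0 of 15834 genes (0.0%), while 1 of the 37 and 1152 genes in all (7.28%) had an unadjusted p under 0.05. DESeq2 called 0 of the 37 and 8 genes in all, 7 of them higher. The smallest p belonged to Gnl3, which had a log2 fold change of 0.62 ± 0.27 between shock and cold ischemia grafts. Nop56 followed at 0.68 ± 0.31, Noc3l at 0.57 ± 0.28, Nop16 at 0.63 ± 0.33 and Noc4l at 0.56 ± 0.30, all with an edgeR adjusted p of 0.67. In none of the 37 genes did the 2 groups stand apart without overlap, beside 5.45% of all genes higher and 4.91% lower. Myc had 0.38 ± 0.26 (adjusted p = 0.71).

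Still, 34 of the 37 log2 fold changes were positive, with a median of 0.33, beside 51.5% of all genes and a median of 0.01. Without shock replicate 2 the median over the 36 genes other than Myc was 0.06, with 21 of 36 positive, and without cold ischemia replicate 3 the median of the 37 was 0.21. By the tables' grouping 36 of 37 were positive (median 0.31), and without both disputed libraries 35 of 37. Shock replicate 2 was the highest of the 6 grafts for 32 of these 36 genes, beside 26.9% of all genes. Its level was a median of 1.65 times the mean of the other 5 grafts, beside 0.986 over all genes. For Nop16 it was 27.1 CPM against 10.5 ± 0.741 CPM (SD, n = 5), and for Gar1 23.3 CPM against 9.15 ± 1.61 CPM. Cold ischemia replicate 3 was the lowest graft for 23 of 36, beside 20.2% of all genes.

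The heat map of levels by library shows that order. The median log2 ratio of the 36 genes to their naive mean was 0.56, 0.35 and 0.11 in cold ischemia replicates 1 to 3 and 0.30, 1.31 and 0.45 in shock replicates 1 to 3. For Myc too, shock replicate 2 was the highest graft and cold ischemia replicate 3 the lowest. The log2 ratio of Myc to its naive mean was 4.91, 4.77 and 4.17 in cold ischemia replicates 1 to 3. In shock replicates 1 to 3 it was 5.26, 5.31 and 4.34. All 8 neutrophil markers were called higher over all grafts, beside 22.1% of all genes. Their summed level ran from 49.8 to 79.3 CPM in naive lungs. This sum was 974, 1129 and 1901 CPM in cold ischemia replicates 1 to 3, and 2552, 2880 and 1473 CPM in shock replicates 1 to 3. Of 9 proliferation markers, 2 were called higher (22.2%, beside 22.1% of all genes), 1 lower (beside 19.7%) and 6 were not called over all grafts. Their median log2 fold change was 0.01, with a summed level of 103 to 149 CPM in naive lungs and 169 to 232 CPM in grafts. All grafts lay above all naive lungs for 2 of them (22.2%, beside 20.9% of all genes). Mki67 ran from 13.6 to 31.3 CPM in naive lungs and from 34.6 to 64.3 CPM in grafts. Pcna ran from 46.6 to 54.9 CPM and from 74.8 to 128.5 CPM. Of 8 monocyte and macrophage markers, 3 were called higher (37.5%, beside 22.1% of all genes), led by Cd14 at 4.73. In the same list 2 were called lower (beside 19.7%), led by Cx3cr1 at -2.03. Their summed level ran from 5977 to 6784 CPM in naive lungs and from 4850.3 to 7898 CPM in grafts. Most of that sum was Lyz2 alone, at 5743 to 6522 CPM in naive lungs and 3575 to 7081 CPM in grafts. The sum therefore says little about the other genes of this list. Summed B cell markers (5 genes) ran from 69.6 to 89.9 CPM and from 28.8 to 46.1 CPM, and summed T cell markers (6 genes) from 24.4 to 27.8 CPM and from 24.8 to 45.9 CPM. Summed mesothelial markers (5 genes) ran from 191.6 to 257 CPM in naive lungs and from 4.17 to 56.4 CPM in grafts, with Wt1 and Bnc1 at 0 in at least 1 library. Their part in the results was not tested, and in bulk lung more cells of a type and more RNA per cell cannot be told apart.

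**Figure D4:**
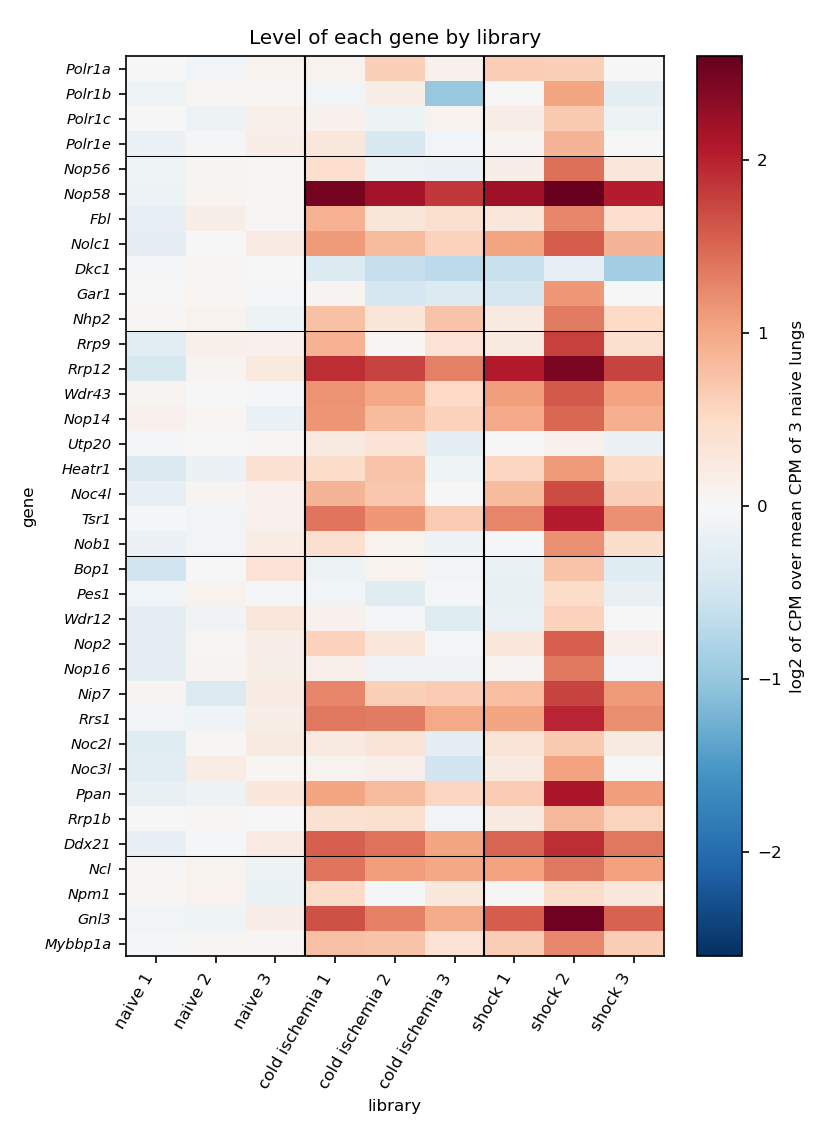
Level of the 36 genes other than Myc (rows, by role) in each library (columns), as log2 of CPM over the mean of the 3 naive lungs, red above and blue below it. The column of shock replicate 2 is the reddest, with a median of 1.31, the row of Nop58 is red in all 6 grafts, and the row of Dkc1 is blue in all 6.

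By the grouping of the deposited tables, the 2 graft groups still had none of the 37 genes called, while 36 of 15834 genes were called higher and 88 lower. Polr1a came nearest. The 3 libraries that the tables place in the shock group stood at 35.95, 36.4 and 36.1 CPM, and the 3 placed in the cold ischemia group at 24.9, 25.4 and 23.4 CPM. With that grouping the log2 fold change of Polr1a was 0.56 ± 0.11 (edgeR adjusted p = 0.056), and the authors' deposited table lists 0.53 with an adjusted p of 0.019, the single one of the 37 called there, beside 1.13% of genes higher and 1.97% lower. With it, 5 genes had groups that did not overlap, all higher in shock (Polr1a, Polr1b, Heatr1, Noc2l and Noc3l), beside 10.9% of all genes higher and 12.4% lower. Myc had 0.62 ± 0.21 (adjusted p = 0.16) with overlapping groups, and the authors' deposited table lists 0.54 with an adjusted p of 0.16. Without both disputed libraries, Myc had 0.69 ± 0.24 (adjusted p = 0.18), with the 2 remaining shock grafts above the 2 remaining cold ischemia grafts. In that setting 8 genes had groups that did not overlap, all higher in shock, and the median of the 37 genes was 0.46. The share over all genes was not counted there. Groups of 2 libraries stand apart easily, and shock replicate 2 is 1 of the 2 shock grafts left. These 8 genes, Myc among them, are therefore not read as a difference. Against naive lungs the authors' deposited tables list 19 of the 37 genes higher and 1 lower in cold ischemia grafts (19.5% and 16.7% of their genes), and 21 higher and 0 lower in shock grafts (20.7% and 16.6%).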

How the data were processed

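RNA of 9 left lungs was sequenced, and the authors deposited 3 tables, 1 per pair of groups, each with 6 libraries. Per the file headers they hold read counts per gene, which are unscaled whole numbers. The deposited normalized signal was checked to equal each count over a constant of its library. The deposited FPKM values correct counts for gene length and total reads. The log2 fold change, p-value and adjusted p-value of each table are the authors' own deposited results. The submitters' processing notes name build mm10 and the tools HTSeq, STAR, STAR-Fusion, edgeR and DESeq2, with no versions. Which annotation was counted is not stated there.

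The tables were joined by gene identifier, and counts repeated between tables did not differ. Libraries were grouped by sample title, 3 per group. Counts were fitted with edgeR 4.0.16 in R 4.3.3 (TMM, filterByExpr, quasi-likelihood test, two-sided) with all 9 libraries in 1 model of 6 residual degrees of freedom, and adjusted over all 15834 genes tested. The fit was tested on simulated counts. CPM use TMM library sizes. At these depths, a floor of 3 reads equals 0.0759 to 0.15 CPM, which covers counting error only. Alternatives were DESeq2 1.42.0, upper-quartile scaling, no filter, a replicate block, only the groups compared, the tables' grouping, no disputed libraries and each library left out. GENCODE M21 (mm10) gave neighbours and snoRNA genes, and RefSeq (GRCm38.p6) gave promoters.

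The members, lists and rules were chosen with earlier results of these data known. Per-library values and statistics are given for Myc and for up to 4 members of each role with the smallest adjusted p over all grafts, with partners of their complexes added after their values were seen. From each other list up to 3 genes per direction are named by the same measure.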

Additional observations from a re-analysis of the deposited data

How the results depend on the processing

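Across the alternatives no called gene among the 37 changed direction, and named genes outside the 37 were not recomputed. These genes lost their call in 23 pairs of gene and setting over all grafts, 23 for cold ischemia grafts and 41 for shock grafts, and kept it in 247, 201 and 279. Leaving out 1 library at a time gave 13 to 19 of the 37 genes higher and 0 to 1 lower over all grafts, 10 to 16 higher and 0 to 1 lower in cold ischemia grafts, and 14 to 22 higher and 0 to 1 lower in shock grafts. All genes called higher then ran from 2717 to 3634, 2083 to 3094 and 2744 to 3523, and lower from 2086 to 3498, 1288 to 2568 and 1869 to 3112. The lowest counts of genes called lower came without naive replicate 2, and cold ischemia grafts without cold ischemia replicate 1 gave 1323 genes lower. Between shock and cold ischemia grafts these counts were all 0. Upper-quartile scaling raised all genes called lower to 5029 over all grafts, 3371 in cold ischemia grafts and 4661 in shock grafts. With it, those called higher made up 39.3% against 57.1% in cold ischemia grafts and 36.5% against 55.1% in shock grafts. Dkc1 was the gene called lower, and the count of 1 became 0 in cold ischemia grafts with no filter, with the replicate block and without the disputed libraries, and in shock grafts with only the groups compared and without the disputed libraries. In cold ischemia grafts it also became 0 on leaving out any cold ischemia library, any naive library or shock replicate 1. In shock grafts it also became 0 on leaving out any naive library, shock replicate 1 or shock replicate 3. Between shock and cold ischemia grafts, all genes called higher and lower were 7 and 1 with DESeq2, 36 and 88 with the tables' grouping, and 9 and 30 without the disputed libraries. The cause was not tested.

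The replicate block, which pairs libraries by the number in their titles, gave 15 of the 37 genes higher over all grafts, 12 in cold ischemia grafts, 15 in shock grafts and 0 between shock and cold ischemia grafts. Same-numbered libraries did not deviate together, with correlations from -0.39 to 0.10, so the numbers are not taken to pair them.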
